A study of Mus musculus with 39 samples.

Results

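Mybl1, Tcfl5, Rfx2, Tbpl1, Pou5f2, Crem, Fhl5 and Sox30 are 8 genes of transcription regulators that male germ cells use in meiosis and in spermiogenesis, the remodelling of the haploid spermatid into a sperm. They were chosen by symbol, and all 8 were found among the 32285 genes listed for the single-cell libraries. Their RNA was followed by germ-cell stage in testes with and without Kdm6a, which encodes a histone demethylase for lysine 27 of histone H3.

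Germ cells carry out meiosis and sperm formation with transcription factors that are switched on in turn. Mybl1 encodes A-MYB, the regulator of the pachytene stage of meiosis and of the precursors of the small RNAs called pachytene piRNAs, and Tcfl5 encodes a basic helix-loop-helix factor of spermatocytes. Rfx2 encodes a factor that binds X-box motifs and drives genes of the cilium and flagellum, and Pou5f2 encodes a POU-domain factor. Tbpl1 encodes a relative of the TATA-binding protein, while Crem encodes a factor for cAMP response elements that acts in spermatids together with its coactivator ACT, the product of Fhl5. Sox30 encodes an HMG-box factor that mouse spermatids need to go beyond the round stage.

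Single cells came from dissociated whole testis, with 1 droplet library of control mice (Kdm6a fl/y; Cre-) and 1 of conditional knockout, or cKO, mice (Kdm6a fl/y; Ddx4-Cre+). Both genotypes carry the floxed allele on their X chromosome, and in the cKO the Cre recombinase is driven by the germ-cell gene Ddx4. The sources used here do not give the number or age of the animals. Open chromatin (ATAC-seq) and the mark H3K27me3 (CUT&Tag) were measured in sorted cKIT+ spermatogonia of the same 2 genotypes, with 2 control and 3 cKO libraries for each, and 1 control CUT&Tag library was made with IgG.

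The control and cKO single-cell libraries held 229882646 and 172368722 unique molecular identifiers (UMIs, each standing for 1 captured RNA molecule). Barcodes with at least 3000 UMIs numbered 11252 and 8520, and 30 of these barcodes were shared. They were placed in 5 germ-cell stages by marker scores that use none of the 8 genes, so a stage name means cells with that stage's markers. The control and cKO libraries gave 250 and 207 spermatogonia, 1027 and 583 early spermatocytes, 1720 and 1284 late spermatocytes, 1708 and 1666 round spermatids, and 4906 and 3564 elongating spermatids. Another 497 and 426 cells lay between early and late spermatocytes, and 274 and 231 between late spermatocytes and round spermatids. In the late spermatocyte stage 8 of 12 markers were at least 2-fold higher than in other cells, but none was among the 10 genes with the highest fold, whereas each other germ-cell stage had 2 to 5 of its own markers there. Kdm6a had 41 UMIs in control and 10 in cKO spermatogonia, and 148 and 11 in early spermatocytes, where the log2 ratio of cKO over control was -3.01 (95% interval -4.05 to -2.13). With 1 library per genotype there is no replicate check and no test of a genotype difference. Intervals are exact Poisson or binomial 95% intervals and cover counting error only.

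The promoters of 4 members are shown, as they differ most in letters and in chromatin: Rfx2 and Tcfl5, which carry several MYB-core matches, Pou5f2, which carries 1, and Fhl5, which carries none. Each is the 250 bases before the start site, 5′ to 3′ on the gene's strand, from RefSeq on build GRCm38.p6. Capitals mark CNGTTG or its reverse CAACNG, the core bound by MYB factors. The windows are chr17:56831009-56831258 (minus strand) for Rfx2, chr2:180642692-180642941 (minus) for Tcfl5, chr13:78024652-78024901 (plus) for Pou5f2, and chr4:25242853-25243102 (minus) for the first of 2 Fhl5 start sites.
Rfx2: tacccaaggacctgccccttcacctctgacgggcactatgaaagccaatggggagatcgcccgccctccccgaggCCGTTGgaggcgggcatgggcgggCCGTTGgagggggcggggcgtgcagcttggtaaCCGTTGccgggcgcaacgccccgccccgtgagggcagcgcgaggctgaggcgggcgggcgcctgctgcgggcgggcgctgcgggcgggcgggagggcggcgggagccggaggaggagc
Tcfl5: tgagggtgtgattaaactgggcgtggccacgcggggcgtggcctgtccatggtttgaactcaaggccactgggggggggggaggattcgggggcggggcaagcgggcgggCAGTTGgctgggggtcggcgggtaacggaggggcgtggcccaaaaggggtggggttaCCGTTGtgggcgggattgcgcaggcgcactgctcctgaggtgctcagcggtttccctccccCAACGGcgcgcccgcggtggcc
Pou5f2: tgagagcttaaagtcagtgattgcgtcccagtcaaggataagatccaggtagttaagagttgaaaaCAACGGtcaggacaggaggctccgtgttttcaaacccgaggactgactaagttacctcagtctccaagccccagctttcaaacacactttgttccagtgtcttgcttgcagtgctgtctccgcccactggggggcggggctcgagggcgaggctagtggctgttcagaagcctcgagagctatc
Fhl5: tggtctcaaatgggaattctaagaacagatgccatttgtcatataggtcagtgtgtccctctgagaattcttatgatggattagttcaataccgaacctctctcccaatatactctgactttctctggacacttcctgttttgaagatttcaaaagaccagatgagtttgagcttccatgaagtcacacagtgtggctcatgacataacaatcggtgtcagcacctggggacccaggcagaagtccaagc

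The RefSeq promoter table held 6 of the 8 members, all but Mybl1 and Crem. Rfx2 held 3 copies of CCGTTG, a subset of the MYB core, which lay 175, 151 and 118 bases before the start. Of 27025 genes in the table, 4.68% had CCGTTG on either strand in the 250 bases before a start site, and 4 genes had 3 or more. All shares of strings below are for those 250 bases. Tcfl5 held CAGTTG at 140 bases, CCGTTG at 83 bases and CAACGG, the same core on the other strand, at 22 bases before the start. CNGTTG in any form occurred in 32.3% of genes, and 1.04% had 3 or more. Pou5f2 held CAACGG at 184 bases. Rfx2 also held 1 RFX half-site (GTTGCC, found in 11.8% of genes), which overlaps the last CCGTTG, and 1 cAMP half-site (TGACG, 19.8%). Sox30, Tbpl1 and Fhl5 held none of the 8 strings searched on both strands, which also included TGACGTCA (1.77% of genes), the E-box CACGTG (6.86%), the SOX core ACAATG (12.2%) and the octamer ATGCAAAT (1.81%). The strings were chosen with the sequences in view, and a match is a description of the letters. The windows also differed in base composition: Rfx2 was 76% G or C with 30 CpG pairs, and the Fhl5 windows were 44% and 37.6% with 2 and 1, against a median of 52.4% and 6 over 32851 windows.

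In cKIT+ spermatogonia, the stage before these genes reach their highest RNA, an ATAC peak lay at 5 of the 8 genes in all libraries, and none at Fhl5 in any. Of 27025 genes, 54.3% had no peak on the 300-base promoter window in any library, and 48.4% none within 1000 bases of a start. The 5 of 8 has no matching share, since Mybl1 and Crem were read at a gene end. An ATAC peak lay on the promoter window of Rfx2, Sox30 and Tbpl1 in all 5 libraries, which is 3 of 6 members with a window, where 23.7% of 27025 genes had this. The authors' fold enrichment of these peaks was 7.26 to 9.25 at Rfx2, 4.34 to 6.38 at Sox30 and 4.97 to 7.23 at Tbpl1, and the ranges of the control and cKO libraries overlapped at each gene. At Rfx2 the peaks began 83 to 92 bases before the start, and all 3 CCGTTG matches lay inside them in 5 of 5 libraries. Each of the MYB-core matches of Tcfl5 lay inside a peak in 1 of 5 libraries, and the match of Pou5f2 in 2 of 5. Mybl1 and Crem had a peak over the high-coordinate end of the RefSeq gene in 5 of 5 libraries, with fold enrichments of 3.60 to 4.15 and 5.65 to 8.09. For Mybl1 that end is chr1 position 9700439. Below a -log10 q of 5 lay the Mybl1 peaks of cKO 1 and cKO 2 (3.54 and 3.36) and the Sox30 peak of cKO 1 (4.53). At that limit neither gene had a peak there in all libraries.

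Pou5f2 had a peak on its window in 3 of 5 libraries (control 2, cKO 2 and cKO 3), Tcfl5 in 1 of 5 (cKO 3), and Fhl5 in none. Within 1000 bases of the start, Tcfl5 had an ATAC peak in 4 of 5, all but cKO 1. With a -log10 q of at least 5, no library had a peak on the Pou5f2 or Tcfl5 window. The libraries with a Pou5f2 peak included both genotypes. Their lists held 33250, 18883 and 40497 peaks, and those of control 1 and cKO 1, which had none at Pou5f2, held 19118 and 14635. The part of list size in these counts was not tested. Sox30 had a second, intragenic peak in 5 of 5 libraries, 11338 to 11436 bases after the start on chr11. Crem and Rfx2 each had one in 4 of 5, all but cKO 1. The fold enrichment of this Rfx2 peak was 3.16 to 5.61. Rfx2 had further intragenic peaks in control 1, control 2 and cKO 3.

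Tcfl5 was the 1 member with an H3K27me3 region within 1000 bases of its start, and it had one in 5 of 5 libraries. Among genes with a start site in the RefSeq table this was 1 of 6 members, where 6.06% of 27025 genes had such a region in all 5. These regions lay inside the gene and ended 641 to 679 bases from the start. Control 2 and cKO 2 had a further region upstream that reached the promoter window. The other 7 members had none within 1000 bases in any library, and 81.7% of the 27025 genes likewise had none. Mybl1 and Crem are not among the 27025 and were counted from the high-coordinate end of the gene. The IgG list of 1449 regions had none at any member. An H3K27me3 region on the promoter window in all 5 libraries was found for 0 of 6 members and for 3.73% of genes.

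**Figure D1:**
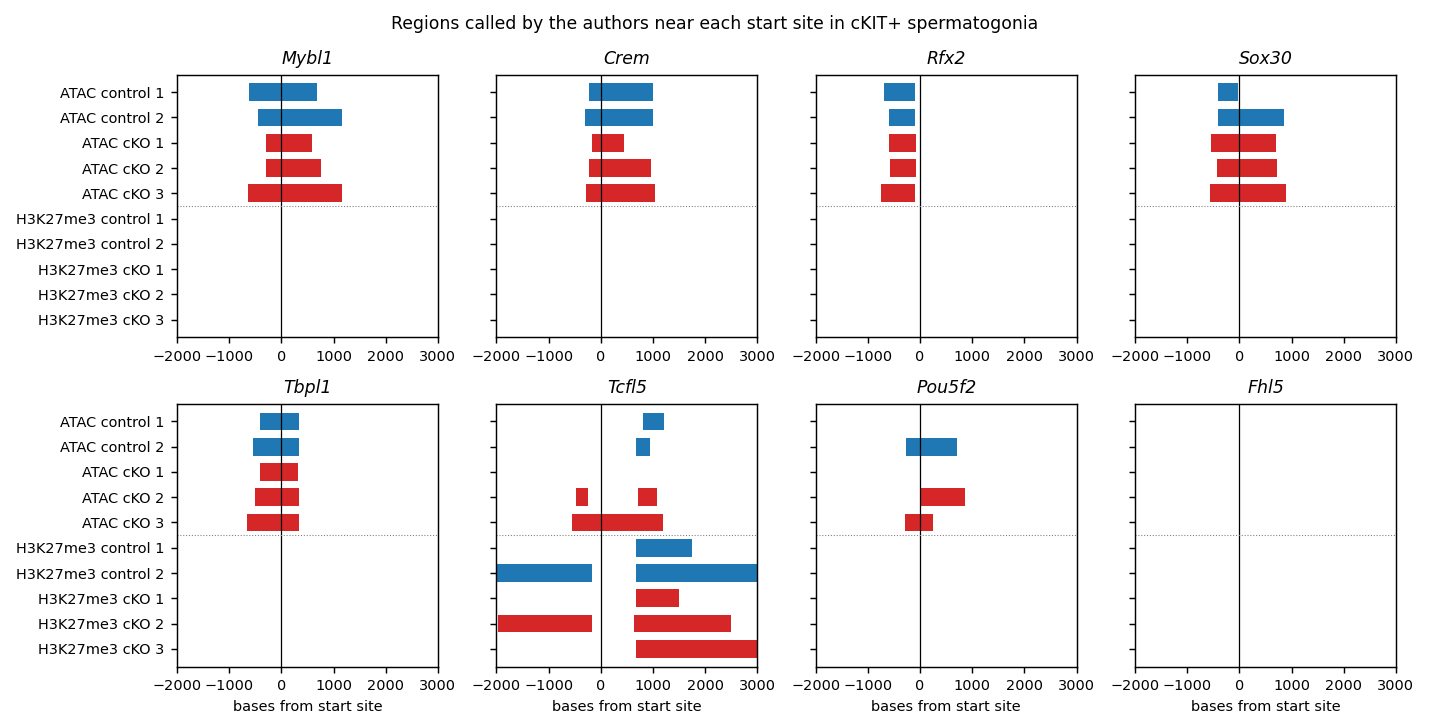
Position of ATAC peaks and H3K27me3 regions around the start site of each member, by library of cKIT+ spermatogonia, with 5 per assay. For Mybl1 and Crem the high-coordinate end of the gene stands for the start. Rfx2, Sox30, Tbpl1, Mybl1 and Crem have an ATAC peak in 5 of 5, Fhl5 in none, and the H3K27me3 regions are at Tcfl5.

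The members were highest at different points of germ-cell development. Levels are given as CPM, the UMIs of a gene summed over the cells of a stage and scaled to a common total. The capture is at the 3′ end and not scaled to gene length, so a gene is compared with itself only. In both libraries Mybl1 was highest in early spermatocytes, Tcfl5, Rfx2, Tbpl1 and Pou5f2 in late spermatocytes among the 5 stages, and Crem, Sox30 and Fhl5 in round spermatids. The stage with the highest level was the same in both libraries for all 8 genes. When germ cells were ordered by their marker scores and split into 20 bins, the bin of the highest level was 3 (control) or 2 (cKO) for Mybl1, and in both libraries 4 for Rfx2, 5 for Tcfl5 and Pou5f2, 6 for Tbpl1, 9 for Crem, and 11 for Sox30 and Fhl5.

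**Figure D2:**
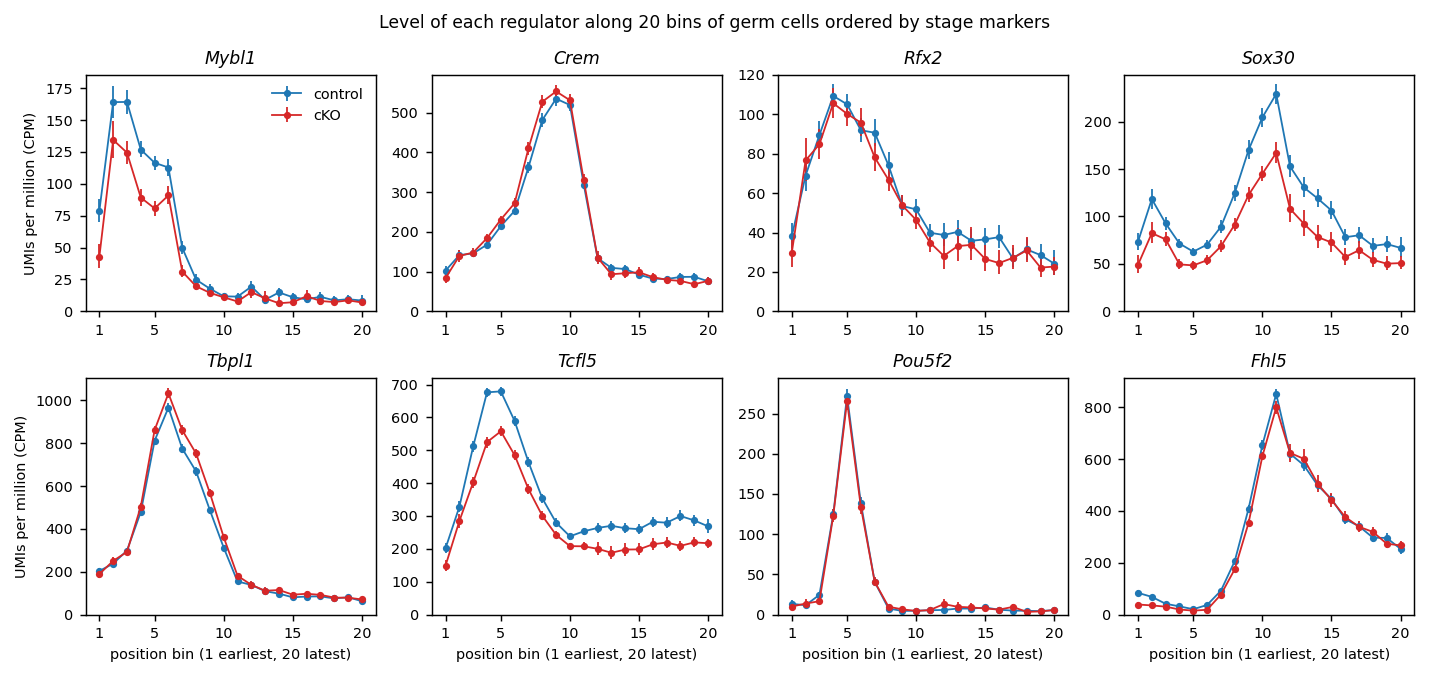
Level of each member in CPM over 20 bins of germ cells ordered by stage markers, control and cKO separately, with exact 95% Poisson intervals. The highest bin moves from 2 or 3 for Mybl1 to 11 for Sox30 and Fhl5, and apart from Mybl1 it is the same bin in both libraries.

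Mybl1, the pachytene activator, stood at 26.6 CPM in control spermatogonia, 158 in early and 112 in late spermatocytes, 15.6 in round and 11.7 in elongating spermatids. The cKO values were 10.0, 130, 80.7, 13.5 and 9.08 CPM. It was thus high in spermatocytes and, in round and elongating spermatids, below its level of 20.2 (control) and 19.9 CPM (cKO) in free RNA. Free RNA here means barcodes with 5 to 100 UMIs, which are taken to hold RNA of the suspension and no cell. Early spermatocytes and the cells just after them could not be ordered, since their intervals overlapped (158 and 156 CPM in control). After subtraction of an estimated free-RNA share Mybl1 stood at 269 (control) and 210 CPM (cKO) in early spermatocytes, and at 31.6 and 2.76 in spermatogonia.

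Tcfl5 was lowest in spermatogonia, with 192 CPM in control and 128 in cKO, and highest in late spermatocytes with 644 and 516. It stayed at 278 and 239 CPM in round and at 274 and 210 in elongating spermatids, above its free-RNA level of 158 and 130. Rfx2 went from 31.3 CPM in control spermatogonia through 64.1 and 102 in early and late spermatocytes to 54.5 and 34.0 in round and elongating spermatids. The cKO values were 20.7, 71.4, 99.6, 51.0 and 27.6 CPM. The late spermatocyte level of Rfx2 and that of the cells between early and late spermatocytes had overlapping intervals, so the pair was not ordered.

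Pou5f2 was the narrowest in time. It stood at 12.5 and 14.1 CPM in control spermatogonia and early spermatocytes, at 183 in late spermatocytes, and at 5.39 and 6.23 in round and elongating spermatids. The cKO values were 10.7, 12.1, 177, 6.31 and 7.07 CPM. Outside late spermatocytes these values lay below its free-RNA level of 26.4 (control) and 23.9 CPM (cKO). Only bins 5 and 6 reached at least 0.5 of the highest bin in each library, against 5 to 8 bins for the other members. Its own RNA was among the 10 genes with the highest fold in the late spermatocyte stage, although it was no marker of it.

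Tbpl1 reached 772 CPM in control and 841 in cKO late spermatocytes, and 805 and 864 in the cells between late spermatocytes and round spermatids. The intervals of that pair overlapped. Round spermatids held 399 and 490 CPM, and elongating spermatids 93.0 and 94.3. Spermatogonia and early spermatocytes held 181 to 252 CPM in the 2 libraries, below the free-RNA level of 348 and 341.

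Crem went from 86.6 CPM in control spermatogonia through 137 and 223 in early and late spermatocytes to 479 in round spermatids, and stood at 96.8 in elongating spermatids. The cKO values were 70.8, 144, 246, 514 and 86.6 CPM. Fhl5, whose product works with CREM, was highest in the same stage, with 545 and 461 CPM in round spermatids, but its highest bin came 2 bins later than that of Crem. It then kept 422 and 383 CPM in elongating spermatids, where Crem was at 96.8 and 86.6. In spermatogonia and spermatocytes Fhl5 lay at 19.6 to 83.8 CPM, below its free-RNA level of 221 and 161 CPM. After subtraction of an estimated free-RNA share it was 0 in spermatogonia and early spermatocytes. Crem in spermatogonia, early spermatocytes and elongating spermatids also lay below its free-RNA level, 215 CPM in control and 183 in cKO, and after subtraction it was 0 in spermatogonia and 73.9 (control) and 116 CPM (cKO) in early spermatocytes. The highest of the 5 stages was the same after subtraction for all 8 genes in both libraries. With the in-between ranges included, Rfx2 in both libraries and Tcfl5 in control were then highest between early and late spermatocytes.

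Sox30 had its highest level in round spermatids, 186 CPM in control and 131 in cKO, with a smaller high in early spermatocytes, 113 and 88.9. Late spermatocytes lay lower, at 68.3 and 50.2 CPM, and elongating spermatids at 99.6 and 65.2. The low point between the 2 highs was bin 5 in both libraries, with 62.9 and 48.4 CPM, against 118 and 82.5 in bin 2 and 229 and 167 in bin 11.

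**Figure D3:**
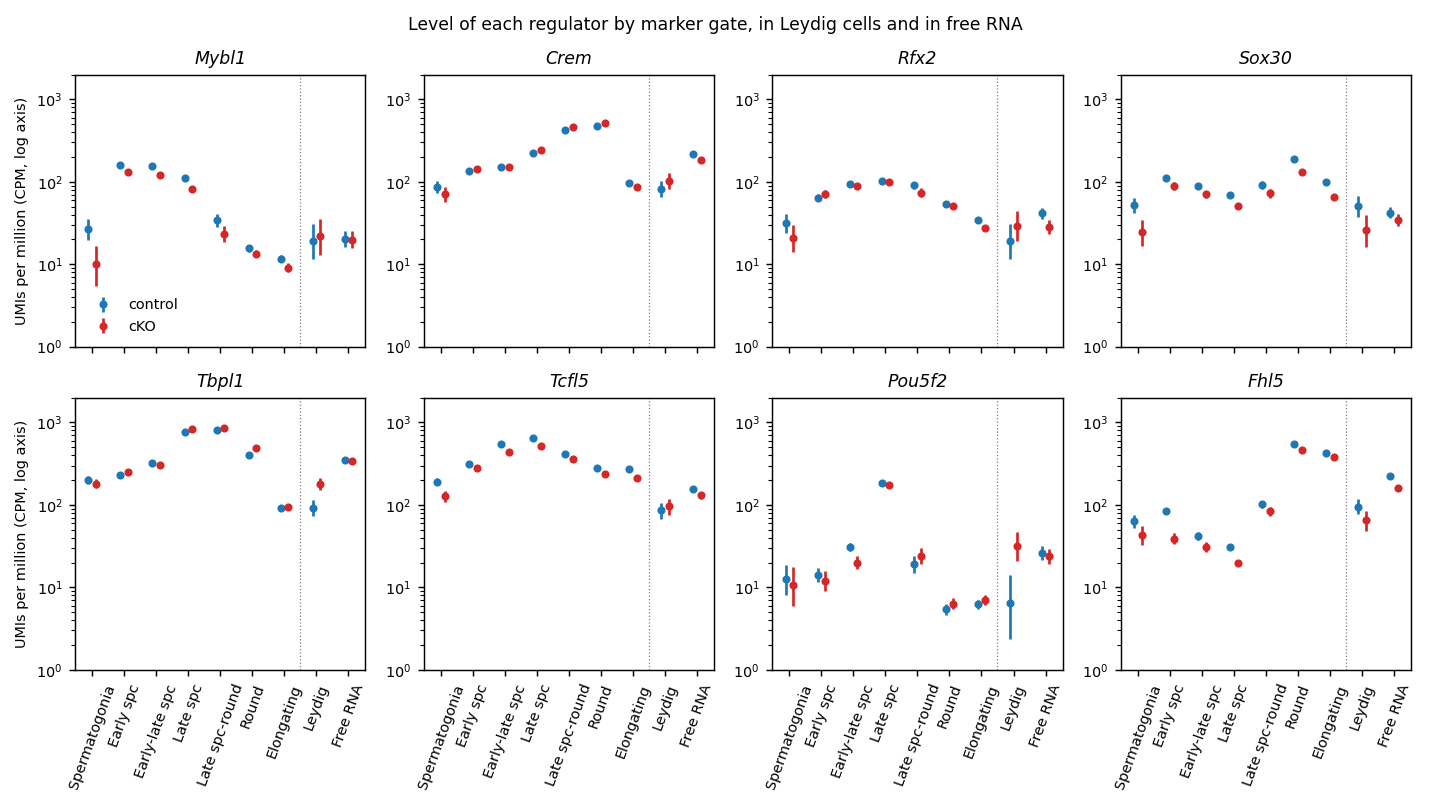
Level of each member in CPM by germ-cell stage in the control and cKO libraries, with exact 95% Poisson intervals and the level in free RNA. Pou5f2 stands out in late spermatocytes (183 and 177 CPM), and Fhl5 lies under its free-RNA level before the round spermatid stage.

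The genes whose level followed each member most closely over the order were found by Pearson's r of log2(CPM + 1) over 40 points, 20 bins in each of the 2 libraries, among 14906 genes. The bins of a library share its cells and depth, and r is a description. Mybl1 was followed by Topaz1 (r = 0.982), a germ-cell gene needed for meiosis, Psip1 (0.981) and Uggt2 (0.980). Crem was followed by Ccdc89 (0.988), Tmem232 (0.987) and Nme5 (0.983). Rfx2 was followed by Ccdc144b (0.975), Iqcg (0.973) and Dnah1 (0.969), a dynein heavy chain of the flagellum. Tbpl1 was followed by Gkap1 (0.993), Tomm22 (0.992) and Larp1b (0.990), and Fhl5 by Samd4 (0.992), Cypt12 (0.992) and Tmem132cos (0.991). Pou5f2 was followed by Lef1os1 (0.973), Nubp2 (0.964) and Gm50240 (0.956). Sox30 and Tcfl5 had the least close followers, 4921509C19Rik (0.945), Cd109 (0.925) and Zfp37 (0.923) for Sox30, and Rcor3 (0.952), Slc13a5 (0.940) and Ralgps2 (0.934) for Tcfl5. Among the members, the closest pair was Rfx2 and Tbpl1 (0.887) and the most opposed was Mybl1 and Fhl5 (-0.89).

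Between the libraries, Sox30 and Tcfl5 were lower in the cKO along the whole order. Mybl1, Rfx2 and Fhl5 were lower in most bins, and Tbpl1 and Crem were higher in most. Sox30 was lower in the cKO library in 20 of 20 bins, with a mean log2 ratio of -0.45 (SD 0.09 over bins), and Tcfl5 in 20 of 20 with a mean of -0.34 (SD 0.10). Of 5591 genes with at least 10 UMIs in each bin of both libraries, 10.3% were lower in all 20 bins and 1.66% were higher in all 20. A mean at or below that of Sox30 was found for 5.2% of these genes, and at or below that of Tcfl5 for 11.5%. Bins of 1 library are not replicates. The other means were -0.39 for Mybl1, -0.27 for Fhl5, -0.17 for Rfx2, -0.01 for Crem, 0.10 for Pou5f2 and 0.11 for Tbpl1, which was higher in the cKO in 17 of 20 bins. Mybl1 was higher in 2 of 20 bins, Rfx2 in 4, Fhl5 in 6, Pou5f2 in 10 and Crem in 13. The median of such means over the 5591 genes was -0.05. No share of all genes was counted for these numbers of bins.

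In round spermatids, the stage where Sox30 is highest, 5114 control and 3552 cKO UMIs gave a log2 ratio of -0.51 (-0.57 to -0.45). When each cell was thinned to 3000 UMIs, 41.5% of control and 31.9% of cKO round spermatids had a Sox30 UMI (unthinned 83.5% and 75.8%). Leydig cells, which should lack the gene, had 13.7% and 2.94%, at a median of 8144 and 6726 UMIs per barcode against 13159 and 12249 in round spermatids. In elongating spermatids 3866 and 1687 UMIs gave -0.61 (-0.69 to -0.53), or -0.49 relative to the median of all genes there, which was itself -0.12. In barcodes with Leydig and Sertoli markers the Sox30 log2 ratios were -0.99 and -0.62, and in free RNA -0.30 (-0.64 to 0.04). Barcodes with Sertoli markers also held germ-cell RNA: the 12 elongating-spermatid markers summed to 69762 CPM in control and 57901 in cKO, against 25297 and 20466 in Leydig cells. The part of these values in the germ-cell difference was not tested.

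Tcfl5 in its highest stage, late spermatocytes, had 24580 control and 13333 cKO UMIs, giving a log2 ratio of -0.32. Its ratios in the 7 ranges from spermatogonia to elongating spermatids ran from -0.58 to -0.16, none past 1.5-fold (0.58 on the log2 scale) at the reported setting. The spermatogonia ratio was past it in 2 of 12 settings. In free RNA the Tcfl5 ratio was -0.28 (-0.45 to -0.10), in barcodes with Sertoli markers -0.41, and in Leydig cells 0.16 (-0.31 to 0.63). Their part in the germ-cell difference was not tested.

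Mybl1 had 1134 UMIs in control and 559 in cKO early spermatocytes (log2 ratio -0.28), and 4284 and 2086 in late spermatocytes, a ratio of -0.48 (-0.55 to -0.40). Its ratio was -0.01 in free RNA, -0.39 (-0.84 to 0.05) in barcodes with Sertoli markers and 0.20 in Leydig cells (18 UMIs in each library). In spermatogonia 51 and 14 UMIs gave -1.41 (-2.38 to -0.54). The cKO level there, 10.0 CPM, lay below free RNA, and so did those of all 8 members in cKO spermatogonia and of 5 of 8 in control.

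Tbpl1 was higher in the cKO library in round spermatids, with 10939 and 13276 UMIs and a log2 ratio of 0.30 (0.26 to 0.33). In that stage the 12 late spermatocyte markers summed to 7886 CPM in control and 8785 in cKO, and the 12 elongating-spermatid markers to 33765 and 24398. Tbpl1 was also higher in cKO barcodes with Leydig markers, by 0.95 (0.56 to 1.35), and in free RNA its ratio was -0.03. Those Leydig barcodes held spermatocyte RNA: late spermatocyte markers summed to 3428 CPM in control and 4878 in cKO, and early ones to 335 and 689. Their elongating-spermatid markers were lower in the cKO, as given above. The part of these in the Tbpl1 ratio was not tested. Crem was close to even in its highest stage, with 13133 and 13953 UMIs and a ratio of 0.10. Rfx2 and Pou5f2 in late spermatocytes had ratios of -0.04 and -0.05, the latter with a sign that turned under another setting. Fhl5 in round and elongating spermatids had ratios of -0.24 and -0.14, the latter turning to 0.00 as a mean over 5 position bins of equal weight, a setting chosen after seeing the data.

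**Figure D4:**
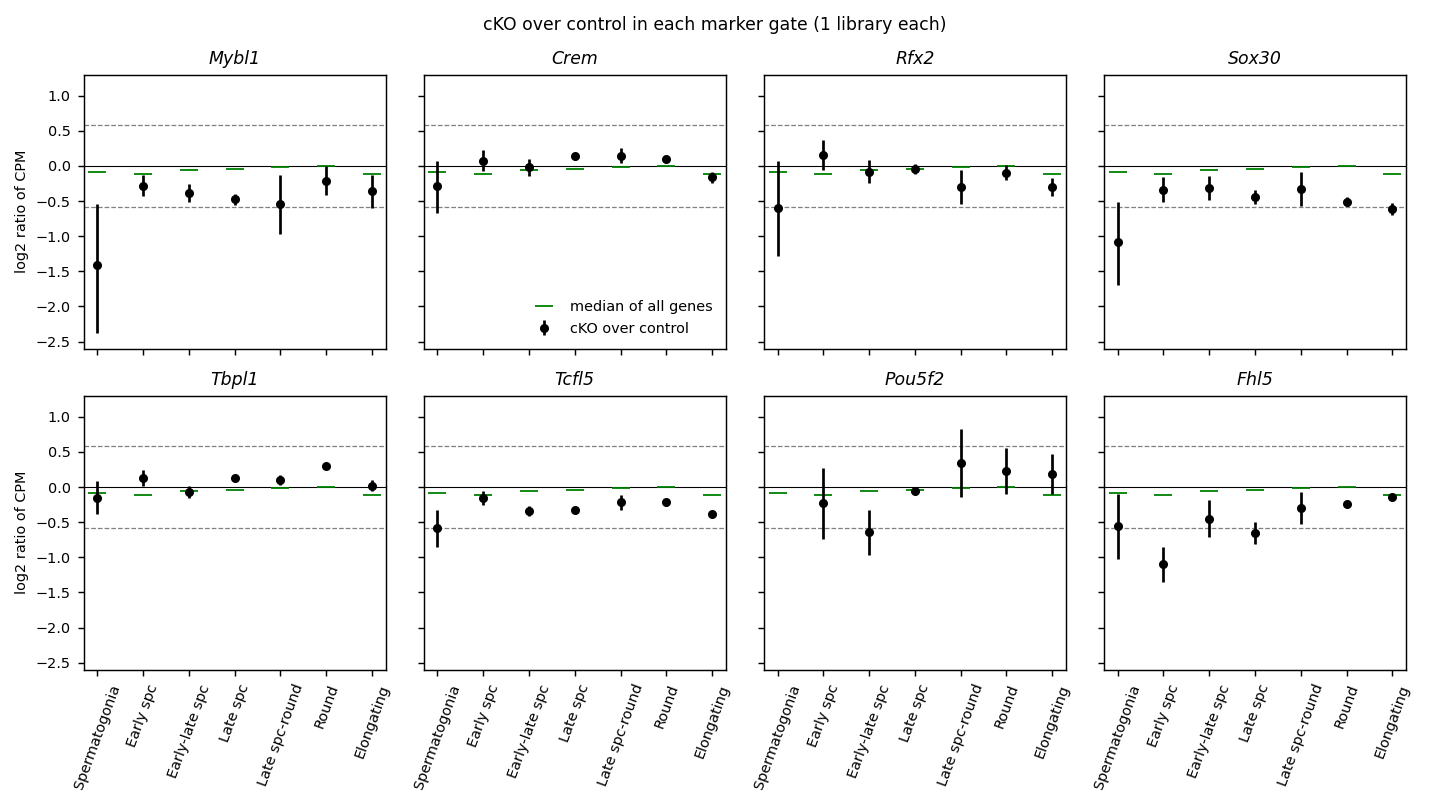
Log2 ratio of cKO over control for each member and germ-cell stage, with exact 95% intervals, dashed lines at 1.5-fold and a tick at the median of all genes measured in that stage. Sox30, Tcfl5, Mybl1 and Fhl5 are below 0 in every stage plotted, and Tbpl1 in round spermatids is at 0.30.

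Past 1.5-fold, with at least 50 UMIs over both libraries, members were found only in the lower direction. In spermatogonia 3 of 7 measured members were lower, Mybl1, Sox30 (-1.09) and Rfx2 (-0.59, interval -1.29 to 0.07), where 8.66% of 8361 genes were. Over the settings tried, this count ran from 2 to 4: Rfx2 was past the fold in 5 of 11 settings, Fhl5 in 4 of 12 and Tcfl5 in 2 of 12. In early spermatocytes 1 of 8 was, Fhl5 (-1.10), against 14.7% of 10877 genes. Between early and late spermatocytes 1 of 8 was, Pou5f2 (-0.64, past the fold in 6 of 11 settings), against 5.96%, and in late spermatocytes 1 of 8, Fhl5 (-0.65, in 11 of 12 settings), against 5.55%. The counts were 0 of 8 between late spermatocytes and round spermatids (9.05% of genes), 0 of 8 in round spermatids (8.27%), and 1 of 8, Sox30, in elongating spermatids (8.54%), where Sox30 was past the fold in 8 of 12 settings. The share of genes past the fold either way was 10.7% in spermatogonia, 16.5% in early spermatocytes, 7.43% between early and late spermatocytes, 6.8% in late spermatocytes, 11.1% between late spermatocytes and round spermatids, 10.3% in round and 9.42% in elongating spermatids. In the same order, the share higher in the cKO was 2.01%, 1.77%, 1.47%, 1.26%, 2.08%, 2% and 0.88%, beside 0 members in each. More of all genes measured were lower than higher in every range. The member median was -0.58 in spermatogonia and -0.15 in round spermatids, beside -0.09 and 0.00 over all genes.

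Several of these differences sit beside differences in the cells or in free RNA. The Fhl5 values in spermatocytes, 83.8 and 39.1 CPM in early and 30.8 and 19.6 in late, were below free RNA, whose own Fhl5 ratio was -0.46. Rfx2 in spermatogonia, at 31.3 CPM in control and 20.7 in cKO, was also below its free-RNA level of 41.6 and 28.1. The Rfx2 ratio in free RNA was -0.57 (-0.93 to -0.21), close to the -0.59 in spermatogonia. The early spermatocyte stage held 9.13% of control and 6.84% of cKO barcodes and differed in several markers. Most spermatogonia markers and most early spermatocyte markers were lower there in the cKO, and a few of each list were higher. Of the spermatogonia markers, Stra8 was 95.5 and 38.6 CPM and Uchl1 31.0 and 39.6. Of the early spermatocyte markers, Prdm9 was 41.2 and 16.5 and Tex15 427 and 150. Sycp1 was 2948 and 2939, Sycp3 2112 and 2227, and Tex101 1515 and 1956. The 14 spermatogonia markers summed there to 203 CPM in control and 128 in cKO. The 14 early spermatocyte markers summed to 10151 CPM in control and 9898 in cKO, and the 12 late spermatocyte markers to 8784 and 10761. All 12 elongating-spermatid markers were lower there in the cKO, by log2 ratios of -0.68 to -0.33, with Prm1 at 6268 and 4507 CPM. In spermatogonia those 12 markers summed to 19836 CPM in control and 21294 in cKO, and the spermatogonia markers to 1950 and 2188. Lower in the cKO there were the sums of early spermatocyte (3030 and 2562), late spermatocyte (4244 and 3954) and round spermatid markers (613 and 498). The estimated share of UMIs from free RNA was 43.6% and 42.2% in spermatogonia, 44.4% and 42.1% in early spermatocytes, 7.83% and 8.0% in late spermatocytes and 18.2% and 14.2% in round spermatids. The part of these in the members' ratios was not tested.

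Other genes of the pathways, from 6 lists, were set beside the members. Of 34 partners and paralogs with a UMI in each library, 25 were highest in the same one of the 7 ranges in both libraries, and so were 39 of 41 other germ-cell regulators, 17 of 20 piRNA and pachytene genes, 24 of 24 spermatid chromatin genes, 22 of 23 cilium genes and 24 of 24 acrosome genes. The spermatid chromatin genes were highest in elongating spermatids in 17 of 24 cases, and the acrosome genes in round spermatids in 17 of 24. Both lists hold markers of those same stages, such as Prm1 and Tnp2 in the first and Acrv1 and Spaca1 in the second. For such genes the highest stage follows from how the stages were set.

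Partners of the members were followed in the stages where the members are highest. Gtf2a1l, which encodes the germ-cell form of TFIIA that works with TBP relatives, was 246 and 267 CPM in late spermatocytes. Fhl4, a relative of Fhl5 with the highest mean level of its list (797 CPM), was 1012 and 1102 CPM in late spermatocytes. Creb3l4, which encodes a membrane-bound CREB relative, was 567 and 532 CPM in round spermatids. Of the partners and paralogs measured, 0 of 24 were past 1.5-fold in late spermatocytes (6.8% of all genes) and 1 of 25 was lower in round spermatids (8.27%). In early spermatocytes 5 of 23 were lower (median -0.21), where 14.7% of all genes were, with the largest ratio at Taf7l, a testis relative of a TFIID subunit (181 and 84.0 CPM, -1.11). The largest ratio in the other direction was at Rfx1 between early and late spermatocytes, 4.25 and 7.56 CPM (0.83), from 36 and 46 UMIs.

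Of the other germ-cell regulators, 12 of 30 were lower and 0 higher in early spermatocytes (median -0.40, all genes -0.11), where 14.7% of all genes were lower. In round spermatids 0 of 27 were past the fold, where 10.3% of all genes were. Gm4969, listed by RefSeq as a synonym of Meiosin, the partner of STRA8 in entry into meiosis, had the largest ratio, 27.1 and 6.05 CPM in early spermatocytes (-2.16). Ybx3, which encodes an RNA- and Y-box-binding protein, had the highest level (1944 CPM), and Usf1 the largest ratio upward, 0.68 in spermatogonia with an interval from -0.00 to 1.38. Values of the stage markers in early spermatocytes, given above, moved with these counts, and their part was not tested. The list itself holds stage markers, among them Stra8 and Scml2.

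Of 20 piRNA and pachytene genes, the context of Mybl1, 1 was lower in early spermatocytes (14.7% of all genes), where Mybl1 was at -0.28 and the list's median at 0.06 (all genes -0.11). Of the same 20, 0 were past the fold in late spermatocytes (6.8% of all genes), where Mybl1 itself was at -0.48 and their median at -0.19 (all genes -0.04). Piwil1, Ccna1, Clgn, Hspa2 and Nme8 of this list are markers that set the late spermatocyte stage, so that count is not independent of it. Tdrd6, which encodes a tudor protein of the chromatoid body, had the largest ratio downward, 101 and 54.3 CPM (-0.89) in spermatogonia, and Piwil1, the PIWI protein of pachytene piRNAs, the largest upward, 440 and 640 CPM (0.54) in early spermatocytes. Ldhc, the germ-cell lactate dehydrogenase, was the most abundant (6264 CPM).

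Of 24 spermatid chromatin and sperm-structure genes, the context of Crem, Tbpl1 and Fhl5, 2 were lower in round spermatids (median -0.17, all genes 0.00) and 6 between late spermatocytes and round spermatids, where 8.27% and 9.05% of all genes were. In early spermatocytes 11 of 24 were lower (median -0.50, all genes -0.11), where 14.7% of all genes were. The elongating-spermatid markers, some of them in this list, summed there to 21000 CPM in control and 14846 in cKO. Their part in that count was not tested. Tnp2, a transition protein that replaces histones, was 2189 and 711 CPM between late spermatocytes and round spermatids (-1.62), and Prm1, a protamine, was the most abundant (25803 CPM). Camk4 had the largest ratio upward, 0.38 in spermatogonia. Tnp2, Prm1 and other genes of this list are among the 12 elongating-spermatid markers. In the range between late spermatocytes and round spermatids those markers summed to 17373 CPM in control and 10227 in cKO. They share genes with these counts, and their part was not tested. No member was past the fold in that range.

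Of the cilium and flagellum genes, the context of Rfx2, 1 of 22 was lower in late spermatocytes (median -0.17, all genes -0.04) and 5 of 20 in spermatogonia (median -0.41, all genes -0.09). The shares of all genes lower in these stages were 5.55% and 8.66%. Elongating spermatids had 5 of 22 lower (median -0.20, all genes -0.12), where 8.54% of all genes were. In spermatogonia the marker sums of early and late spermatocytes and round spermatids were lower in the cKO, as given above. Those of spermatogonia and elongating spermatids were higher. The part of these sums in the count there was not tested. Ccdc40, needed for assembly of axonemal dyneins, was 26.1 and 9.30 CPM in spermatogonia (-1.49), Dync2li1, a light intermediate chain of the transport dynein, was 85.7 and 127 CPM in early spermatocytes (0.56), and Rsph1, a radial-spoke protein, was the most abundant (1975 CPM). Of 24 acrosome and spermatid genes, the context of Sox30, 0 were past the fold in round spermatids (10.3% of all genes), where their median was 0.02 and that of all genes 0.00. Several of them, such as Acrv1, Spaca1 and Izumo1, are markers that set the round spermatid stage. This count is therefore not independent of how the stage was set. In early spermatocytes, where Sox30 has its smaller high, 9 of 24 were lower (median -0.42, all genes -0.11), where 14.7% of all genes were. The elongating-spermatid markers, lower in the cKO in that stage as given above, moved with this count, and their part was not tested. Tssk6 is in this list and among those markers. Cylc1 was 61.6 and 27.9 CPM in spermatogonia (-1.14), Lyzl4 was 22.4 and 28.6 CPM in late spermatocytes (0.35), and Hils1, a spermatid linker histone, was the most abundant (999 CPM).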

How the data were processed

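Single-cell RNA was read as UMI counts per gene and barcode, deposited for every barcode with no cells selected. Per the file headers they were made with Cell Ranger, and the submitters' processing notes name Seurat 4.1.0 and build mm10. The authors deposited ATAC peaks with a fold enrichment, which is a ratio, and with -log10 q, and CUT&Tag regions with a summed signal. The submitters' processing notes list Bowtie2, MACS2, SEACR, SAMtools and deepTools. Peaks were called per library. Bulk RNA files were not used here, since their transcript IDs were not matched to genes.

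Barcodes with at least 3000 UMIs entered. A barcode took the stage with the highest mean z-scored log marker score, with at least 3 detected markers and a lead of 0.25. Barcodes between neighbouring germ-cell scores formed the in-between ranges. Doublets were kept. Scrublet (scanpy 1.11.5) called 5.21% of control and 6.03% of cKO barcodes, and these were left out in an alternative. Ratios needed 50 UMIs over both libraries, and a fold of 1.5 marked a size, with no test. Analyses used Python 3.11.15, numpy 2.4.6, scipy 1.17.1, pandas 2.3.3 and matplotlib 3.10.9. The gates and ratios were also run on simulated cells drawn from the summed control profile of each stage. Those cells differed within a stage only by depth, counting and set fold changes. The run therefore cannot check how well real cells are placed. The members and lists were chosen with earlier results of these data known.

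Named genes are all members, the 3 genes most like each member over the bins (at least 200 UMIs), and from each list the most abundant gene and the largest ratio either way. Of the list symbols, Meiosin, Ddx39a and H1f7 were matched through RefSeq synonyms, and Odad1 was not matched.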

Additional observations from a re-analysis of the deposited data

How the results depend on the processing

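Requiring 200 UMIs tests fewer genes, and the counts of genes past 1.5-fold were then 160 for 892 in spermatogonia, 802 for 1796 in early spermatocytes, 251 for 767 between early and late spermatocytes, 409 for 925 in late spermatocytes, 265 for 947 between late spermatocytes and round spermatids, 673 for 1444 in round and 551 for 1262 in elongating spermatids. With barcodes of at least 2000 UMIs the count between late spermatocytes and round spermatids was 1505.

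Members past the fold, as reported 1 in early spermatocytes, were 2 with at least 5000 UMIs. Between early and late spermatocytes they were 2 with at least 2000 UMIs, and 0 with at least 5000 UMIs, with ratios centred on the median of all genes, with a lead of double size or without Scrublet doublets. In late spermatocytes they were 0 with no lead between stages. Between late spermatocytes and round spermatids (reported 0) they were 1 with at least 2000 UMIs or without Scrublet doublets, and 2 with the mean of the cells' CPM. In elongating spermatids they were 0 with at least 5000 UMIs, with centred ratios, when scaled without mitochondrial and the 10 most abundant genes, and with the mean over 5 position bins, an alternative chosen after seeing the data. The cause was not tested.

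Subtraction of an estimated free-RNA share moved 87 of 112 member levels. The median share of cells with a member UMI in its highest stage was 56.4% in control and 47.5% in cKO after thinning, and 87.7% and 83.1% without. Sox30 in round spermatids ran from -0.54 to -0.47 over 12 settings, In spermatogonia Sox30 was past the fold in 11 of 11, Mybl1 in 10 of 10, Rfx2 in 5 of 11, Fhl5 in 4 of 12 and Tcfl5 in 2 of 12, and the count of members, reported as 3, ran from 2 to 4. The alternatives without shared barcodes and for peak overlap, q and left-out libraries were also chosen after seeing the data. With a -log10 q of at least 5, an ATAC peak lay on the window of Sox30 in 4 of 5 libraries (reported 5), of Pou5f2 in 0 (reported 3) and of Tcfl5 in 0 (reported 1). Mybl1, which has no window, also lost its gene-end peaks of cKO 1 and cKO 2 at that limit (3.54 and 3.36). No paired analysis was possible because there was 1 single-cell library per genotype and the results come from no test.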
